A study of Drosophila melanogaster with 2 samples.

Results

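The genes described here are 30 named genes of dorsoventral patterning and of the first zygotic transcription in the Drosophila melanogaster embryo, out of 13945 protein-coding genes annotated on the 6 main chromosome arms. They were listed by name, with earlier results of these data known, and no measured value enters the rule. Binding was mapped by ChIP-seq, in which fixed chromatin is precipitated with an antibody and the DNA is sequenced, and the values are lists of peaks. An anti-GFP antibody was used on a transgenic line, named Meics-GFP in the labels, that stably carries Meics joined to GFP at its C-terminal end. Meics is a zinc-finger protein. Whole embryos of 0 to 24 hours, of both sexes pooled, were used, and the 2 biological replicates are numbered 1 and 3. There was 1 group and no comparison of conditions. A collection of this length mixes all embryonic tissues with stages before, during and after the period in which these genes pattern the axis.

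The dorsoventral axis of the fly embryo is set up by a gradient of nuclear Dorsal, an NF-kappaB factor encoded by dl. On the ventral side the ligand Spätzle (spz) activates the receptor Toll (Tl), and the inhibitor Cactus (cact) is then degraded and releases Dorsal into nuclei. High Dorsal levels switch on mesoderm genes such as twi and sna, lower levels switch on genes of the neurogenic ectoderm such as rho and sog, and genes repressed by Dorsal, such as zen and tld, are left active dorsally, where BMP signalling patterns the dorsal ectoderm. The pioneer factor Zelda (zld) opens many of the earliest zygotic genes, which include the cellularization genes nullo, bnk and slam. None of this is a result of these data.

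Meics-GFP summits at these genes lay mostly in introns of long genes, and most of the short zygotic genes had none. The intronic share of all summits in the list was not counted, so the first statement has no background beside it. The main list is labelled as thresholded on the irreproducible discovery rate (IDR), which scores the repeatability of peak order over replicates. This list was the same as the 7689 strongest regions of the pooled list, made from both replicates together. A place in the main list therefore does not show that a given peak repeated in both replicates. Its summits, the highest points of its peaks, were within 500 bp of a transcription start site (TSS) of 6 of the 30 genes (20%), which were dl, cact, spz, T48, Ance and ush. Over all protein-coding genes the share was 26.1%. With the gene body included, 11 of 30 genes (36.7%) held a summit, against 32.1% of all protein-coding genes. The additional genes were Tl, twi, fog, sog and zld. In all, 40 IDR summits lay at the starts or in the bodies of these 11 genes, and 16 of the 40 were in a single gene, ush. Within 20 kb of the gene on either side, 25 of 30 (83.3%) had a summit, against 87.4% of all protein-coding genes.

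**Figure D1:**
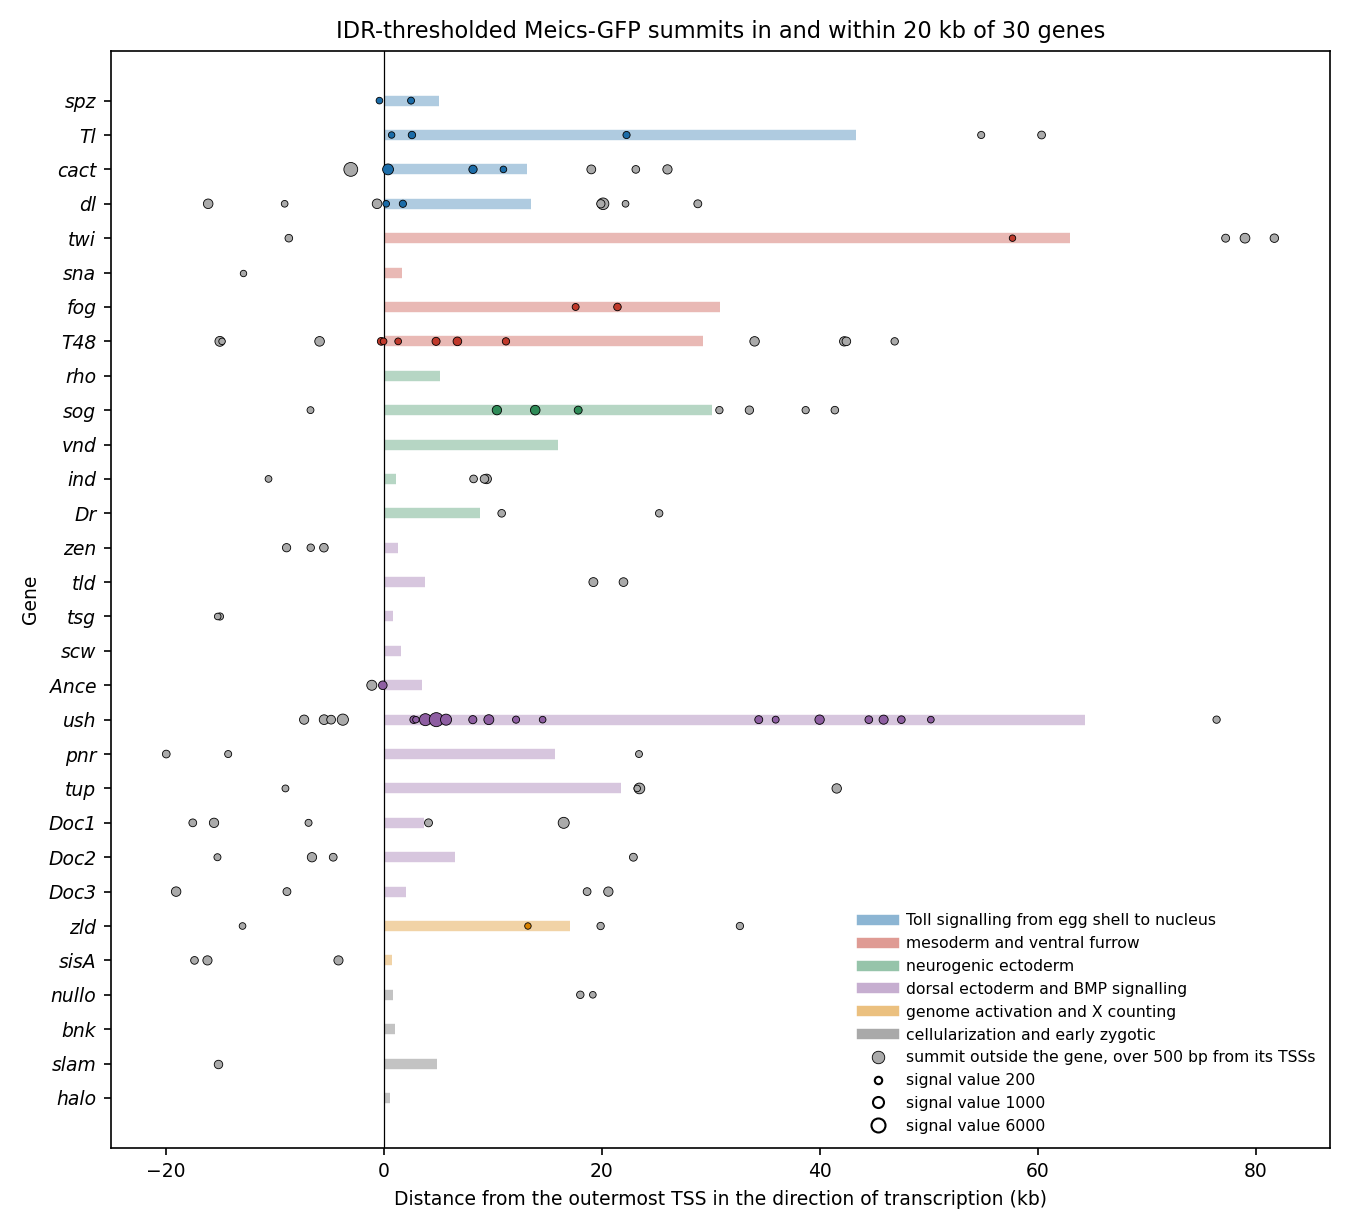
IDR-thresholded summits in and within 20 kb of the 30 genes. Each row is a gene, drawn from its outermost TSS in the direction of transcription (kb), the bar is the gene body, and each point is a summit with a size that grows with its signal value. Summits of ush, T48, sog, Tl and cact lie along the gene bodies, and rho, vnd, scw, bnk and halo have no point at all.

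The genes with a summit were mostly the long ones, and the values are given side by side without a test. Among genes of 10 kb or longer, a length limit set after the values were seen, 9 of 12 members (75.0%) held a summit at a TSS or in the body, against 66.7% of all protein-coding genes of that length. Under 10 kb, 2 of 18 members (11.1%) held one, against 26.3% of all protein-coding genes under 10 kb. The 2 short genes with a summit were Ance and spz, and the 3 long genes without one were tup, pnr and vnd. The median length was 5108 bp for the 30 genes and 2166 bp for all protein-coding genes.

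**Figure D2:**
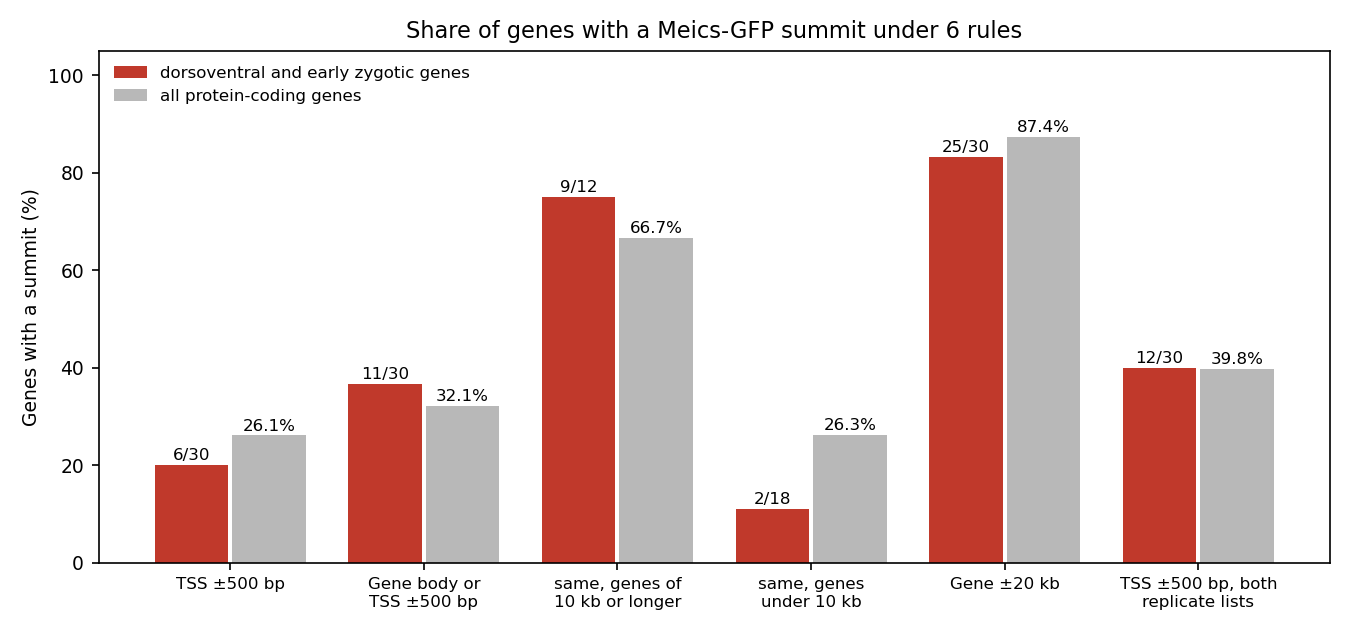
Share of genes (%) with a Meics-GFP summit under 6 rules, for the 30 dorsoventral and early zygotic genes (left bar, with the count) and for all protein-coding genes (right bar). The 2 bars stand apart most for genes under 10 kb, at 11.1% and 26.3%.

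The DNA under 8 of these summits follows, chosen to cover the strongest in ush, cact, sog and Ance, the only match to the Dorsal-type word, and the stronger start summit of T48. Each line gives a stretch of the plus strand of dm6 that reaches 50 bp to either side of a summit, read from the RefSeq copy of the genome, with the gene and the position of the summit relative to the outermost TSS of that gene. Capitals mark matches to 10 kinds of word that were searched on both strands. The first 3 windows lie in an intron of ush at and beside the strongest summit in any of the genes, and the cact window lies next to a start of the Toll pathway inhibitor. The sog windows are intronic, and the Ance and T48 windows lie just upstream of starts.
ush +3837, chr2L:480007-480107: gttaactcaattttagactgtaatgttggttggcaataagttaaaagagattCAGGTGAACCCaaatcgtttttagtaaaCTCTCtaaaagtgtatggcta
ush +4836, chr2L:481006-481106: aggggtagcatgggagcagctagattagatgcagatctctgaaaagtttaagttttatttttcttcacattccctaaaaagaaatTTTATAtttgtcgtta
ush +5729, chr2L:481899-481999: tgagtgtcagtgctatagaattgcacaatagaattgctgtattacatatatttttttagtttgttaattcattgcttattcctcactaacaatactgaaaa
cact +408, chr2L:16325749-16325849: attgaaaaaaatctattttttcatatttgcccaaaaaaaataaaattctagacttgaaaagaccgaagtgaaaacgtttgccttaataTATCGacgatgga
sog +13913, chrX:15619471-15619571: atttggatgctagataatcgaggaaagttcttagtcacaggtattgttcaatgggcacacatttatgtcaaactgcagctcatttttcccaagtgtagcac
sog +10397, chrX:15622987-15623087: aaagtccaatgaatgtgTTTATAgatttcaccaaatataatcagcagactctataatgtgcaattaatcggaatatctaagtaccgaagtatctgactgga
Ance -73, chr2L:13905522-13905622: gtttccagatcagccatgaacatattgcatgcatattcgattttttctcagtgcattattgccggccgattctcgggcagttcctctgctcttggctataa
T48 -215, chr3R:26881469-26881569: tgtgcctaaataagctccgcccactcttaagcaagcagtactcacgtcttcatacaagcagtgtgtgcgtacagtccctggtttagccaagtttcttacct

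Of the words of factors that read the axis, most were in 1 or 0 of the 40 windows, and the Snail-type E-box was in 4. The Zelda word CAGGTAG was in 0 of 40 windows, against 0.494% of the windows at all 7689 IDR summits. The Twist-type E-box CACATG was in 0 of 40, against 3.84%, and its variant CATATG was in 1 of 40 (2.50%), against 4.01%. The Dorsal-type word GGGNNNNCC was in 1 of 40, the ush +3837 window, against 3.26% of all IDR windows. That window also held the Snail-type E-box CAGGTG, whose letters overlap the Dorsal-type match, and the GAGA word. CAGGTG was in 4 of 40 windows (10.0%), of which 3 were in ush and 1 in spz, against 2.80% of all IDR windows. With so few windows, and 16 of them in 1 gene, these shares are descriptions.

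Of the other words, TATAAA was in 8 of 40 windows (20%), against 22.1% of all IDR windows. GAGAG, the GAGA-factor word, was in 8 of 40 (20%), of which 5 were in ush, against 10.4%. GATAAG was in 2 of 40 (5%), against 5.64%, and CGATA, the short BEAF-32 site, was in 2 of 40 (5%), against 14.4%. The word pair GTGACGAA and GTAACGAA was in 0 of 40, against 2.65%; this pair had been picked from these same peaks earlier. The median GC content was 35.6% in the 40 windows and 33.7% at all IDR summits. No match marks a binding site by itself, and a missing word says only that these letters are not in the window.

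Of the Toll signalling genes, which carry the signal from the ligand to the nucleus, 4 of 4 held a summit, 3 of them at a TSS. Over all protein-coding genes the shares were 32.1% at a TSS or in the body and 26.1% at a TSS. The genes dl, cact and Tl are over 10 kb long, and 66.7% of all protein-coding genes of 10 kb or longer held a summit. The strongest was at cact (FBgn0000250, dm6 2L from 16313036 to 16326207, minus strand), the IkappaB-type inhibitor of Dorsal. Its peak spanned 16325615 to 16325935 with the summit 174 bp upstream of one of its 4 annotated TSSs. It had a signal value (the strength given by the peak caller) of 913, rank 638 of 7689 and 3.48 times the IDR median. The region ranked 549 of 30000 in the list of replicate 1 and 732 in the list of replicate 3, so both replicates held it near the top. Another 2 summits lay in cact introns, with signal values of 285 and 153.

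The Dorsal gene itself held weak summits whose order differed between the replicates. In dl (FBgn0260632, 2L from 17436830 to 17450364, minus strand), 1 summit lay 84 bp upstream of an inner TSS (signal value 187, rank 5748) and another 240 bp downstream of the outermost TSS, in the 5′ UTR (154, rank 7204). The inner one ranked 16302 in replicate 1 and 4432 in replicate 3, and the outer one ranked 4775 in replicate 1 and 13050 in replicate 3. These ranks are of the nearest region, and replicate 3 also held a region of rank 7670 within 230 bp of the outer summit. A stronger summit lay 599 bp upstream of the outermost TSS, beyond the window, with a signal value of 495, rank 1604, and ranks of 1283 in replicate 1 and 1955 in replicate 3. Farther off, 15337 bp downstream of the nearest dl TSS, a summit with a signal value of 1390 stood inside Dif, a second NF-kappaB gene. It lay 2031 bp upstream of an inner Dif TSS, the nearest one (rank 289, and 282 and 298 in replicates 1 and 3).

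The ligand and the receptor held summits with signal values below the IDR median of 262. In spz (FBgn0003495, 3R from 27064990 to 27070070, minus strand) summits lay 382 bp upstream of the TSS (signal value 155, rank 7157) and in an intron 2519 bp downstream of it (171, rank 6370). The upstream region ranked 7898 in replicate 1 and 6662 in replicate 3. In Tl (FBgn0262473, 3R from 26799041 to 26842403, plus strand) the 3 summits were intronic, 735, 2601 and 22289 bp downstream of the TSS. Their signal values were 146, 200 and 185, with ranks of 7615, 5318 and 5834. Just below the IDR threshold, whose lowest signal value was 144, the pooled list held a region 350 bp upstream of the Tl TSS with a signal value of 138 (rank 8059).

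Of the mesoderm and ventral furrow genes, T48 held the most summits and sna held none. T48 (FBgn0004359, 3R from 26881734 to 26910997, plus strand) encodes a transmembrane protein that takes part in apical constriction of the invaginating mesoderm. Summits lay 215 and 2 bp upstream of its TSS (signal values 232 and 158), and both matched the same region of replicate 1. Another 4 lay in introns, 1337, 4814, 6771 and 11228 bp downstream, and the strongest of these, at 6771 bp, had a signal value of 321 (rank 2991, and 3250 and 2972 in replicates 1 and 3). The gene fog (FBgn0000719, X from 22824317 to 22855194, minus strand), which encodes the secreted ligand of the same process, held 2 intronic summits with signal values of 212 and 171, ranked 4983 and 6405. The first of these was nearer to a start of the overlapping gene CG42346, at 1338 bp, than to one of fog, at 2522 bp.

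The mesoderm factors twi and sna had no summit at a start. The only summit in twi (FBgn0003900, a bHLH activator, 2R from 22985374 to 23048325 in this annotation) lay in a long intron 3033 bp upstream of the nearest twi TSS. It counted as inside twi only through the outermost of 3 annotated TSSs, which lies 57701 bp upstream of it. The summit was 132 bp upstream of the TSS of CG42741, a gene inside that intron on the other strand. Its signal value was 145 and its rank 7640 of 7689, with 5732 in replicate 1 and 10289 in replicate 3. For sna (FBgn0003448, 2L from 15476593 to 15478260), a zinc-finger repressor, the nearest IDR summit was 12869 bp upstream and ranked 7673, and no list held a region within 500 bp of its TSS.

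Of the 5 neurogenic ectoderm genes, sog held 3 intronic summits, 2 of them above the IDR median, and the others none. Over all protein-coding genes, 32.1% held a summit at a TSS or in the body. The median length of the 5 was 8859 bp, and the share was 26.3% for all protein-coding genes under 10 kb and 66.7% for longer ones. The gene sog (FBgn0003463, X from 15603283 to 15633434, minus strand) encodes a secreted BMP inhibitor. Its summits lay 10397, 13913 and 17854 bp downstream of the outermost TSS, with signal values of 444, 495 and 246. The first ranked 1906 in the IDR list, 2042 in replicate 1 and 1800 in replicate 3. The second ranked 1603, 1589 and 1684 in the same order, so the 2 strongest repeated closely. At its starts, sog had regions in both replicate lists only below the IDR threshold, at ranks 9006 in replicate 1 and 8757 in replicate 3.

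The protease gene rho, whose product releases an EGFR ligand, fell just short of the list. The pooled list held a region 47 bp downstream of the rho TSS with a signal value of 131 (rank 8555), and it ranked 15120 in replicate 1 and 6509 in replicate 3. The columnar homeobox genes showed less. Dr (also known as msh) had a start region at rank 13452 in replicate 1 and 19042 in replicate 3. For vnd the start had a region at rank 24833 in replicate 3 and none in replicate 1, and ind had none in either list.

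Of the 11 genes of the dorsal ectoderm and of BMP signalling, 2 held a summit at a TSS or in the body, against 32.1% of all protein-coding genes. Of the 17 summits in these 2 genes, 16 were in ush. The median length of the 11 genes was 3668 bp, and 26.3% of all protein-coding genes under 10 kb held a summit. The gene ush (FBgn0003963, 2L from 476220 to 540560, plus strand) encodes a zinc-finger cofactor of GATA factors. It held 16 IDR summits, of which 2 were within 500 bp of a TSS and 14 in introns, over a length of 64341 bp. Of all 13945 protein-coding genes, of any length, 6 (0.0430%), with ush itself among them, had 16 or more summits within the gene. Per 10 kb of gene, ush held 2.49 summits, close to cact at 2.28 and spz at 1.97, the next highest of the members. The strongest lay 4836 bp downstream of the outermost TSS and had a signal value of 6114, rank 12 of 7689 and 23.3 times the IDR median. It ranked 14 in replicate 1 and 10 in replicate 3.

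For 6 of the 16 ush summits, the 3 strongest among them, the nearest protein-coding TSS was that of another gene, cbt. This gene (FBgn0043364, 2L from 476446 to 479688, minus strand), a zinc-finger transcription factor gene, lies wholly inside ush on the other strand, with its TSS 3468 bp downstream of the outermost ush TSS. The summit with a signal value of 1719 (rank 193) was 369 bp upstream of the cbt TSS, the one of rank 12 was 1368 bp upstream of it, and the one with a signal value of 1023 (rank 518) was 2261 bp upstream. The nearest apart from the first were weak ones 501 and 709 bp downstream of the cbt TSS (signal values 149 and 215), and the sixth lay 4716 bp upstream (263). Which of the 2 genes these summits belong to cannot be told apart from position alone. The other ush summits were weaker than the 3 strongest, but not all were weaker than the rest of those near cbt. The strongest of these other summits lay 9656 bp downstream of the outermost ush TSS, with a signal value of 575 (rank 1303). Its nearest protein-coding TSS was that of ush. At the inner TSSs, the summit 24 bp upstream of one (signal value 156) ranked 3645 in replicate 3, and the region of replicate 1 nearest to it (rank 25915) was 190 bp away and nearer to another summit of the pooled list, while the summit 13 bp upstream of another (218) ranked 7018 in replicate 1 and 4296 in replicate 3. Regions of both replicate lists clustered near the start of cbt and again toward the innermost ush TSSs, with weak regions between them.

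**Figure D3:**
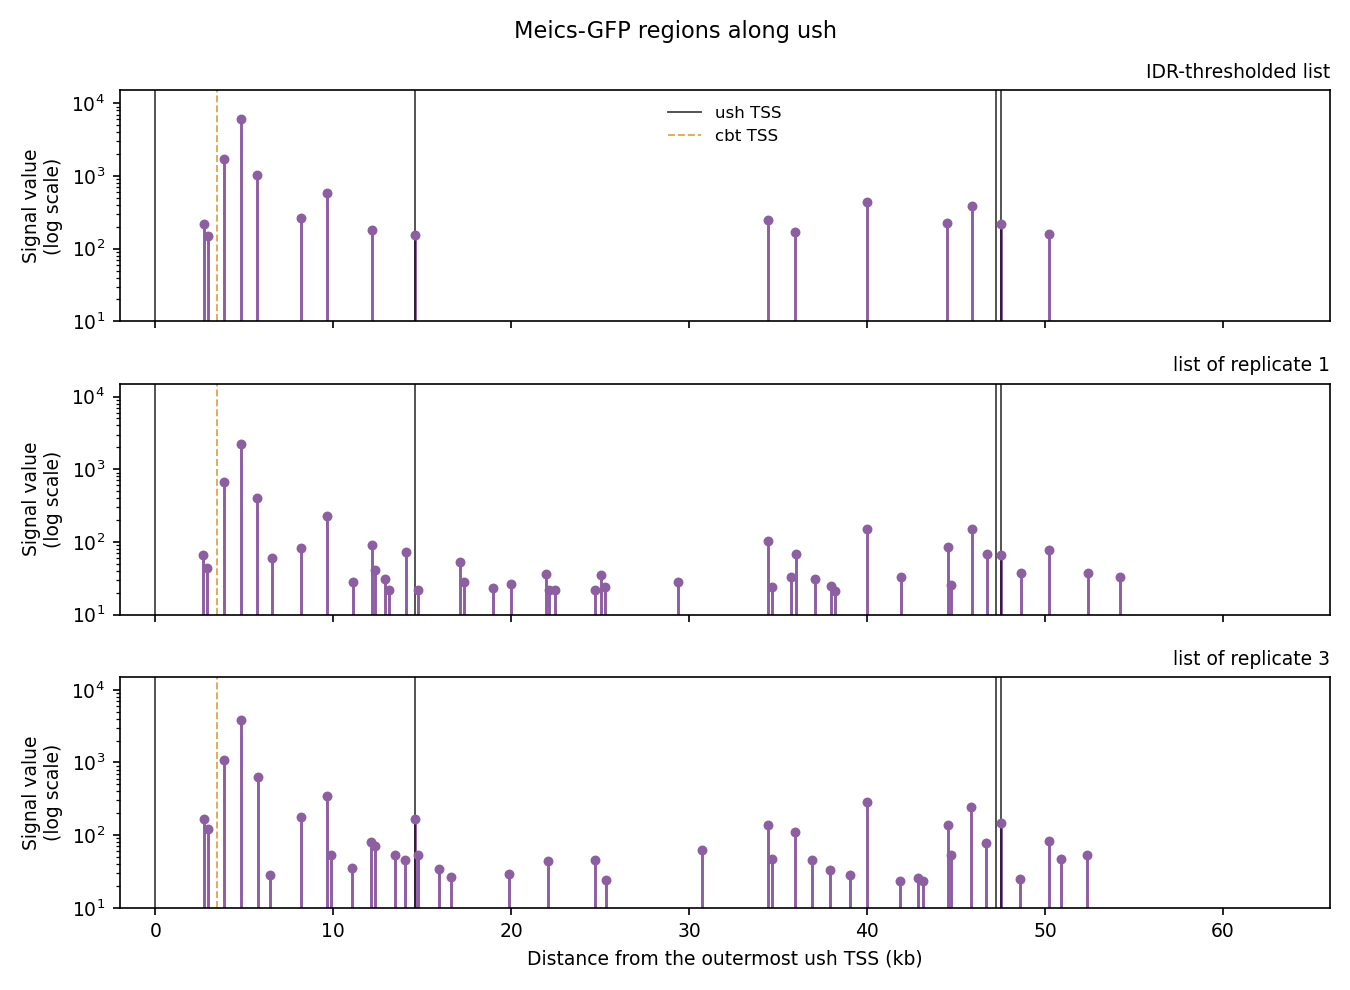
Signal values (log scale) of Meics-GFP regions along ush, against distance from its outermost TSS (kb), in the IDR-thresholded list and in the 2 replicate lists. Solid lines mark the ush TSSs and the dashed line the cbt TSS, and the region at 4836 bp is the tallest in all 3 panels.

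Ance (FBgn0012037, 2L from 13905645 to 13909212, plus strand), which encodes a peptidase related to the angiotensin-converting enzyme, had a summit 73 bp upstream of a TSS. Its signal value was 320 and its rank 3007, with 2269 in replicate 1 and 4046 in replicate 3. A stronger summit, with a signal value of 608, lay 1082 bp upstream of the nearest Ance TSS, 87 bp upstream of the TSS of the neighbour Smg5. The GATA gene pnr had a region 159 bp upstream of a TSS just below the threshold (signal value 127, pooled rank 8848), with 7718 as its best rank in replicate 1 and 10198 in replicate 3. The LIM-homeobox gene tup had start regions at 13626 in replicate 1 and 8317 in replicate 3. The genes zen (a homeobox factor), tld (a protease that cleaves Sog), tsg (a BMP-binding partner of Sog) and scw (a BMP ligand) had no region of the pooled list or of either replicate list within 500 bp of a TSS. The nearest IDR summit to scw was 57744 bp away.

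Zelda's own gene held 1 weak summit. It lay in a zld intron (FBgn0259789, X from 19766465 to 19783548, minus strand), 12838 bp downstream of the nearest TSS, with a signal value of 146 (rank 7588, and 7508 and 9166 in replicates 1 and 3). The X-counting gene sisA, a bZIP activator of Sxl, had its nearest IDR summit 4140 bp upstream of its TSS, 1112 bp from the nearest start of Gapvd1. The 4 cellularization and early zygotic genes nullo, bnk, slam and halo, which act in membrane growth, actin organisation and vesicle or droplet transport, held 0 summits, and no list held a region within 500 bp of their starts. Their bodies span 616 to 4897 bp, and 26.3% of all protein-coding genes under 10 kb held a summit at a TSS or in the body. The nearest IDR summits to their TSSs were 18047, 22650, 15227 and 32013 bp away, in the order named.

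Counting regions of both replicate lists below the IDR threshold as well, 12 of 30 genes (40.0%) had a region within 500 bp of a TSS in both lists of 30000, against 39.8% of all protein-coding genes. Beyond the 6 with an IDR summit these were Tl, rho, sog, pnr, tup and Dr. All 40 IDR summits at the starts or in the bodies had a region within 230 bp in both replicate lists. In replicate 1, 3 of these regions were nearer to another summit of the pooled list, those of ush at 24 bp and T48 at 2 bp upstream of a TSS and of T48 at 11228 bp downstream. With these 3 counted as unmatched in replicate 1, 26 of the 40 were among the 7689 strongest regions of both replicates, 7 of replicate 1 only and 7 of replicate 3 only. Only the nearest region was matched, and a stronger one could also lie within 230 bp. In replicate 3 this was so for the outer dl summit (rank 7670) and for T48 at 1337 bp (rank 7593), both counted as replicate 1 only. With each replicate taken alone by its 7689 strongest regions, 6 genes had a summit at a TSS in replicate 1 and 7 in replicate 3, a share of 21.7% ± 2.36 (SD, n = 2), against 26.2% of all protein-coding genes in replicate 1 and 26.8% in replicate 3.

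**Figure D4:**
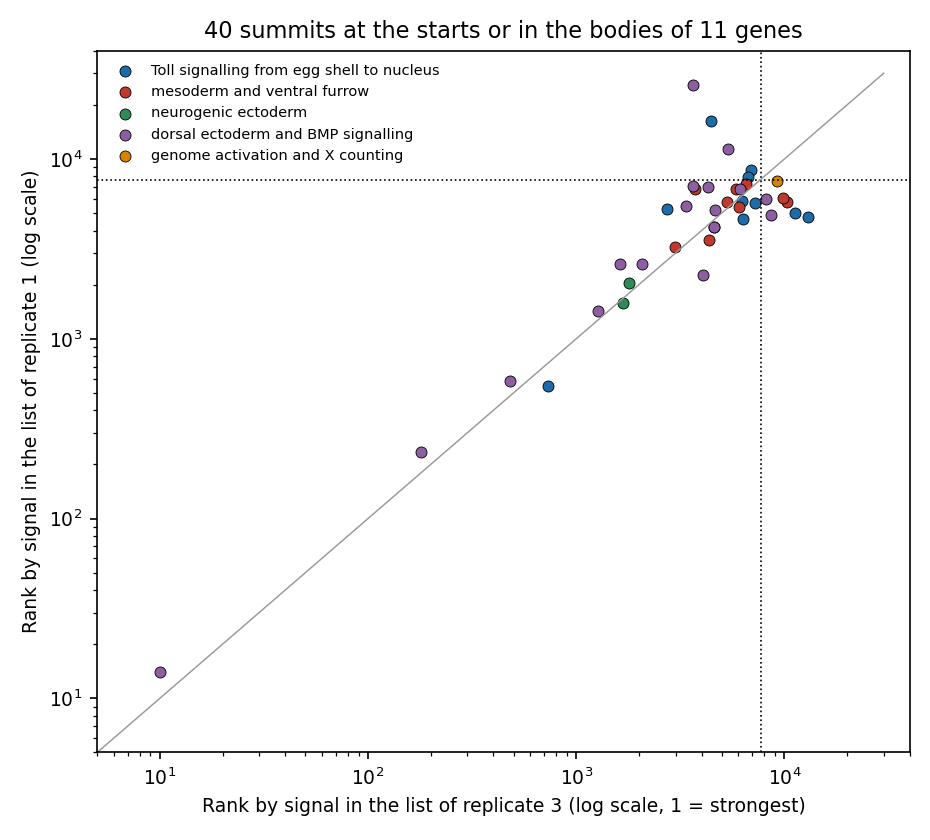
Ranks of the regions nearest to the 40 summits in the lists of replicate 3 and replicate 1 (log scales, 1 is the strongest), coloured by the role of the gene. Dotted lines mark rank 7689 and the solid line equal ranks. The strongest summits lie near the line, and the dl start summit at rank 16302 in replicate 1 lies far above it, as does the ush point at 25915, whose region is nearer to another pooled summit.

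The median signal value of the 40 was 214, against 262 in the whole IDR list, and 13 of the 40 ranked within the top 3844 of the 7689. Outside ush, the median of the other 24 was 190 and 6 ranked within the top 3844. Of the 40, 31 lay over 500 bp from every TSS of their gene. All 31 were in introns of it, and 14 of the 31 were in ush. In 28 of the 40 the nearest protein-coding TSS was that of the gene itself, and in 12 it was that of another gene. The intron and nearest-TSS counts were not made over all IDR summits.

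Over the gene and 20 kb on each side, merged where windows met, there were 112 summits, or 7.19 per 100 kb, against 5.74 per 100 kb over the 6 arms. Without ush, a choice made after its values were seen, the density was 6.26. The value of 5.74 covers the whole arms and not windows around genes, so it is an unlike measure. The density in such windows around all protein-coding genes was not computed. Of the 72 summits outside the genes, 37 (51.4%) were within 500 bp of a protein-coding TSS of another gene. Of all 7689 IDR summits, 43% were within 500 bp of a protein-coding TSS. The 72 leave out the summits inside the members, while the 43% includes summits inside genes, so these are unlike sets. The strongest of the 72 was 3010 bp upstream of cact and 85 bp upstream of mRpL4, a mitochondrial ribosomal protein gene, with a signal value of 5358 (rank 15). Others stood 280 bp upstream of CG4297 near ush (1107), 319 bp upstream of Argk1 near Doc1 (999), 112 bp upstream of CG10602 near tup (850) and 145 bp upstream of CG9890 near twi (527). Near T48, summits lay 89 bp upstream of ball (559) and 8 bp downstream of the TSS of ms(3)K81 (495).

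The other genes of the same processes gave mixed counts. Of 14 other maternal Toll pathway genes, 6 (42.9%) had an IDR summit within 500 bp of a TSS, against 26.1% of all protein-coding genes. The strongest were at gro, a corepressor (signal value 1278), Myd88, a Toll adaptor (791), pll, the kinase of the pathway (454), and pip, a sulphotransferase that fixes the ventral side of the egg (352). Of 28 other zygotic dorsoventral genes, 10 (35.7%) had one, led by aos, an EGFR antagonist (854), tin, a mesoderm homeobox factor (739), htl, an FGF receptor of the mesoderm (403), and crb, an apical polarity protein (341). Of 20 other early zygotic and cellularization genes, 5 (25.0%) had one, led by Trl, which encodes the GAGA factor (1109), sqh, the myosin regulatory light chain (892), Sxl, the sex-determination switch (756), and Bro, a CBF-beta partner of Runt (695). With the gene body included, the shares of these lists were 50%, 57.1% and 25%, in the order named, against 32.1% of all protein-coding genes.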

How the data were processed

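ChIP-seq peak lists of 2 biological replicates were used. Per the labels, chromatin was sonicated with a fragment range of 200 to 800 bp, and lists were made on dm6 and dm3. No aligner, peak caller or IDR cutoff is named in the labels used here. On dm6 the deposited files hold 30000 regions for each replicate, 30000 for the pool, and an IDR-thresholded list, which was checked to be the 7689 strongest regions of the pool. The deposited signal value was compared within a list only. Ranks came from that signal value, because 6671 IDR peaks shared the highest deposited −log10 q-value. The read depth of these lists is unknown, and control reads were not analysed here. The 4 dm3 lists were not used.

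Summits (start plus offset, counted from 1) were assigned to genes and TSSs of the Ensembl annotation BDGP6.54, which is on the assembly of dm6. A summit went to the TSS (500 bp), the gene body or the 20 kb flank, in this order. The nearest replicate region within 230 bp was matched to a summit. Words were searched within 50 bp of summits on both strands, and sequence came from RefSeq. No test was run, since the members and lists were chosen with earlier results of these data known. Counts of genes stand beside the same counts over all protein-coding genes, and densities beside the density over the whole arms. All 30 members were accounted for, and members with a summit at a TSS or in the body were named with each or the strongest of their summits. Of the other pathway genes, up to 4 per list with the strongest summit at a TSS were named; 5 of their symbols were matched through RefSeq synonyms. Outside the genes, summits were named from the 10 strongest. Windows, lists, flanks and single replicates were varied. The assignment was tested on planted summits. Python 3.11.15, numpy 2.4.6, pandas 2.3.3 and matplotlib 3.10.9 were used.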

Additional observations from a re-analysis of the deposited data

How the results depend on the processing

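The counts depended mainly on how many regions were admitted, which follows from the settings themselves. With the top 3844 IDR peaks, 2 of the 30 genes were called at a TSS, 5 had a summit at a TSS or in the body, 16 had one within 20 kb, and the density was 3.02 per 100 kb, against 16.5%, 21.2% and 73.5% of all protein-coding genes and 2.87 per 100 kb over the arms, so the density was closer to that of the arms than with the whole list (7.19 against 5.74). With the pooled list of 30000 regions these values were 15, 17 and 29 genes and 25.6 per 100 kb, against 46.2%, 51.4% and 97.6% and 22.4 per 100 kb. At a TSS the members' share was thus below that of all protein-coding genes in the IDR list (20% against 26.1%) and above it in the pooled list (50% against 46.2%). With a 5 kb flank, 16 genes had a summit, against 59.7%. The count of genes with a region of both replicate lists at a TSS was 7 with a 200 bp window, against 27.3%, and 5 with the 7689 strongest regions of each list, against 22.8%. Replicate 1 alone gave 6 genes at a TSS, 12 at a TSS or in the body and 26 within 20 kb, against 26.2%, 32.2% and 87.5%. Replicate 3 alone gave 7, 10 and 25 genes, against 26.8%, 32.5% and 87.2%. The densities were 7.70 and 6.80 summits per 100 kb, against 5.74 over the arms in both. With the whole list of 1 replicate, 13 genes had a region at a TSS in replicate 1, against 45.9%, and 17 in replicate 3, against 48.5%. All other alternatives stayed within 1.5 times the reported value. No paired analysis was possible because there was 1 group and no test. The unknown read depth limits what a missing summit shows: it may lie below the list's cutoff.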

Other observations

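The Doc genes, 3 neighbouring T-box genes of the dorsal ectoderm and the heart on 3L, had no IDR summit at a TSS or in a gene body, but summits stood between them. A summit 6571 bp upstream of the Doc2 TSS had a signal value of 435 (rank 1967 of 7689), with rank 2412 in replicate 1 and 1751 in replicate 3. Another, 4622 bp upstream of the same TSS, had a signal value of 231, and the third, 6886 bp upstream of Doc1, had 175. For these 3 summits a Doc gene had the nearest protein-coding TSS. This was true of a member gene for only 7 of the 72 summits outside the 30 genes. The others of the 7 lay 599 bp upstream of dl, 10833 bp downstream of the Dr TSS (signal value 217), 9005 bp upstream of tup (167) and 12942 bp upstream of zld (156).

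The zen locus lies in the Antennapedia complex. Summits upstream of zen were near starts of its neighbours, 204 bp upstream of bcd, the anterior determinant (signal value 316), and 307 bp upstream of Ama (280).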
